A study of Mus musculus with 2 samples.

Results

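The family of microRNAs that share the seed of miR-15 and miR-16, in whole or in part, was examined in hindbrain of mouse embryos by microRNA sequencing. Its 8 members, out of 1973 gene entries counted, were chosen by gene name: Mir15a, Mir15b, Mir16-1, Mir16-2, Mir195a, Mir322, Mir503 and Mir497. The first 7 were read on their own strand. Mir497 had no entry of its own and was read from the opposite strand of the entry Mir497b, which lies over it. The data comprise 2 libraries of embryonic day 16.5 hindbrain from healthy B6NCrl mice, with males and females pooled and no genotype, treatment or control group. The libraries are labelled as biological replicates, each from its own pool of embryos (37 in replicate 2, a number not given for replicate 1). This was bulk tissue, so fewer cells of a type and less RNA per cell cannot be told apart. With a single group, levels are described within and between the 2 libraries, and no condition was compared.

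MicroRNAs of this family are short RNAs that load into Argonaute proteins and repress messenger RNAs that pair with their seed, bases 2 to 8 of the mature strand. The family is best known for restraining the cell cycle and cell survival, with cyclins, cyclin-dependent kinases and Bcl2 among the known targets. The pair in Dleu2 is known for its loss in chronic lymphocytic leukaemia. The Mir195a/Mir497 pair is known from heart and endothelium, and the Mir322/Mir503 pair from muscle differentiation and the placenta.

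The members are made from 4 loci, each with 2 hairpins on 1 strand (mm10, GENCODE M21). Mir15a (ENSMUSG00000093007.1) and Mir16-1 (ENSMUSG00000092995.1) lie on chromosome 14 from 61631880 to 61632110, with Mir15a in an intron and Mir16-1 over an exon of the noncoding gene Dleu2. Mir15b (ENSMUSG00000065580.1) and Mir16-2 (ENSMUSG00000065606.1) lie on chromosome 3 from 69009772 to 69009996, both in introns of Smc4, which encodes a condensin subunit. Mir195a (ENSMUSG00000065411.2) and Mir497 lie on chromosome 11 from 70234717 to 70235135 and overlap no other GENCODE gene than Mir497b (ENSMUSG00000070109.2) on the other strand. Mir322 (ENSMUSG00000065418.1) and Mir503 (ENSMUSG00000076122.1) lie on chromosome X from 53053984 to 53054349, inside the RefSeq gene C430049B03Rik. The gap between the hairpins of a locus was 54 bases at Dleu2, 66 at Smc4, 200 at Mir322/Mir503 and 241 at Mir195a/Mir497.

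The 5p arms of the members, from RefSeq (GRCm38.p6), are shown because a shared seed joins the family and sequence identity decides which reads can be given to a locus. They are written 5′ to 3′, with the seed in capitals.
miR-15a-5p: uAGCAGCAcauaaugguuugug
miR-15b-5p: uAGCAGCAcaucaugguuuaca
miR-16-5p: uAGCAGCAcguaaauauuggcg
miR-195a-5p: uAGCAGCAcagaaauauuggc
miR-497a-5p: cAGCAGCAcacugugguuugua
miR-322-5p: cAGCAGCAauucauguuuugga
miR-503-5p: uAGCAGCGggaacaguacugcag

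All 8 members carried the same 6 bases from position 2 to position 7, and these were the only positions that did not vary among the 21 compared from the 5′ end. The seed was AGCAGCA in 7 members and AGCAGCG in Mir503. Base 1 was U in 6 members and C in 2, Mir322 and Mir497. Counted from 1 at the 5′ end, miR-16-5p differed from miR-195a-5p by G10A and U11G, with 19 of 21 positions identical. miR-15b-5p differed from miR-15a-5p by C12A, A20G, C21U and A22G, with 18 of 22 identical.

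Mir16-1 and Mir16-2 make the same 5p strand. The stretch that both hairpins share around it is 23 bases long, 1 more than the mature strand, and is shown because a read that ends inside it fits both loci.
shared by Mir16-1 and Mir16-2: uAGCAGCAcguaaauauuggcgu
The 3p arms of the 2 hairpins differ and are shown for that contrast.
miR-16-1-3p: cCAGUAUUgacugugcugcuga
miR-16-2-3p: aCCAAUAUuauugugcugcuuu
No other 5p strand of a member occurred at more than 1 locus in the RefSeq table. The counts are per hairpin and do not separate the arms. Reads that map to several places, 34.5% and 35.1% of all reads in replicates 1 and 2, were given to no gene. The counts of Mir16-1 and Mir16-2 are therefore no measure of the amount of miR-16-5p. All levels, shares and orders given here are of assigned reads.

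The libraries held 5097205 and 4460836 sense counts in replicates 1 and 2. Of the 6 markers of the labelled tissue, 4 were well detected, with the Hox-cluster microRNA Mir10a at 63004 and 57854 counts per 1000000 sense counts (CPM) and the neuronal Mir137 at 9157 and 7199 CPM. Mir10b was at 37989 and 28014 CPM and Mir9-3 at 485 and 467 CPM. The neuronal hairpins Mir124a-1 and Mir124a-2 had few assigned reads, with 22 and 13 counts and with 11 and 3 counts. Any reads that fit several loci are left out of these counts and of those of Mir9-3. Summed muscle markers were at 398 and 40.4 CPM, mesenchymal markers at 377 and 191 CPM, and vascular markers at 34724 and 36467 CPM in replicates 1 and 2. Of the 7 muscle markers with an entry, Mir1a-1, Mir133a-1 and Mir133a-2 had no count in either library. A count of 0 leaves room for 0.589 CPM of assigned reads at the depth of replicate 1 and 0.673 CPM at that of replicate 2. Reads that fit several loci were given to no gene, so a 0 for a hairpin with a copy elsewhere need not mean absence. Mir122, a liver marker, was at 41.0 and 41.9 CPM, and summed erythroid markers were at 216 and 206 CPM.

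Together the 8 members held 1.30% ± 0.106 of the sense counts (SD, n = 2), with 1.37% in replicate 1 (exact binomial 95% interval 1.36% to 1.38%) and 1.22% in replicate 2 (1.21% to 1.23%). These intervals, which cover counting error only, do not overlap. All 8 members had at least 10 counts in both libraries, against 19.5% of all entries. The members were chosen with earlier results of these data known, so this contrast is a description only. The Mir322/Mir503 locus supplied 57.7% ± 2.01 of the family's counts and the Dleu2 locus 28.7% ± 0.179 (SD, n = 2). The Mir195a/Mir497 locus supplied 7.27% ± 1.98 and the Smc4 locus 6.36% ± 0.143 (SD, n = 2). The share of the Mir195a/Mir497 locus was 5.88% in replicate 1 and 8.67% in replicate 2, so it passed the Smc4 locus, at 6.46% and 6.26%, in replicate 2 only.

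**Figure D1:**
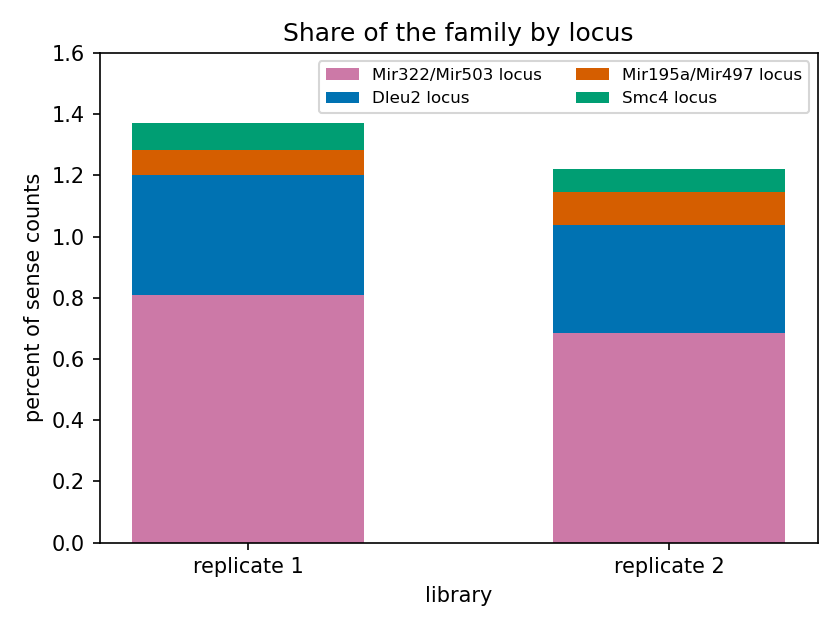
Stacked bars give the percent of all sense counts held by each locus of the family in replicates 1 and 2, from 0. The Mir322/Mir503 locus is the largest part of both bars, whose full heights are 1.37% and 1.22%.

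Mir322, whose human counterpart is named miR-424, had the most assigned reads of the 8 members. The place of the miR-16 hairpins against it is not settled by these counts, which leave out reads that fit both. Mir322 had 40695 and 30200 counts in replicates 1 and 2, or 7984 and 6770 CPM, a mean of 7377 ± 858 CPM (SD, n = 2). It ranked 25th of all entries by mean CPM. The entries next to it in level were Mir23b and Mir137 above, at 8322 ± 211 and 8178 ± 1384 CPM, and Mir30d and Mir143 below, at 7356 ± 499.96 and 7155 ± 19.6 CPM (SD, n = 2). The log2 difference of their means from Mir322 ran from 0.17 for Mir23b to -0.04 for Mir143. Likeness of level was measured over 2 libraries only.

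Mir503, its neighbour 200 bases away, had the fewest assigned reads. It had 593 and 424 counts, or 116 and 95.05 CPM, a mean of 106 ± 15.1 CPM (SD, n = 2). Mir322 exceeded Mir503 in both libraries, 68.6-fold in replicate 1 and 71.2-fold in replicate 2. The mean log2 ratio was 6.13 ± 0.04 (SD, n = 2). A ratio was called different where both libraries had the same sign and the mean exceeded 2 SD, and this one was called.

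The Dleu2 pair followed Mir322 in level. Mir15a had 14135 and 10907 counts, or 2773 and 2445 CPM, a mean of 2609 ± 232 CPM (SD, n = 2). Mir16-1 had 5841 and 4798 counts, or 1146 and 1076 CPM, a mean of 1111 ± 49.7 CPM. Mir15a was above Mir16-1 in replicate 1 (log2 ratio 1.27) and in replicate 2 (1.18), and the mean of 1.23 ± 0.06 (SD, n = 2) was past 2 SD. The count of Mir16-1 leaves out reads that also fit Mir16-2, so the ratio is one of assigned reads.

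The Smc4 pair was lower than the Dleu2 pair in both libraries. Mir15b had 3546 and 2631 counts, or 696 and 589.8 CPM, a mean of 643 ± 74.9 CPM (SD, n = 2). Mir16-2 had 971 and 779 counts, or 190.5 and 175 CPM, a mean of 183 ± 11.2 CPM. As at Dleu2, the miR-15 hairpin had more assigned reads than the miR-16 hairpin, at log2 ratios of 1.87 and 1.76, and the mean of 1.81 ± 0.08 (SD, n = 2) was past 2 SD.

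Between paralogues, Mir15b was below Mir15a by a mean log2 ratio of -2.02 ± 0.04 (SD, n = 2). Mir16-2 was below Mir16-1 by -2.61 ± 0.02, and the Smc4 locus as a whole below the Dleu2 locus by -2.17 ± 0.04. All 3 ratios were past 2 SD. The Mir15b and Mir15a ratio rests on hairpins with different mature strands, whereas the other 2 include the shared miR-16 strand.

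The Mir195a/Mir497 locus was the only one of the 4 with more counts in replicate 2 than in replicate 1. Mir195a had 2048 and 2577 counts, or 402 and 578 CPM, a mean of 489.7 ± 124 CPM (SD, n = 2). Mir497, read opposite to Mir497b, had 2059 and 2146 counts, or 404 and 481 CPM, a mean of 443 ± 54.5 CPM. Both were higher in replicate 2. The 2 hairpins were level within their spread, with a mean log2 ratio of Mir497 over Mir195a of -0.13 ± 0.19 (SD, n = 2) and opposite signs in the 2 libraries, 0.01 and -0.26. On its own strand the entry Mir497b had 1 and 9 counts, and its annotated mature strand does not carry the family seed.

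**Figure D2:**
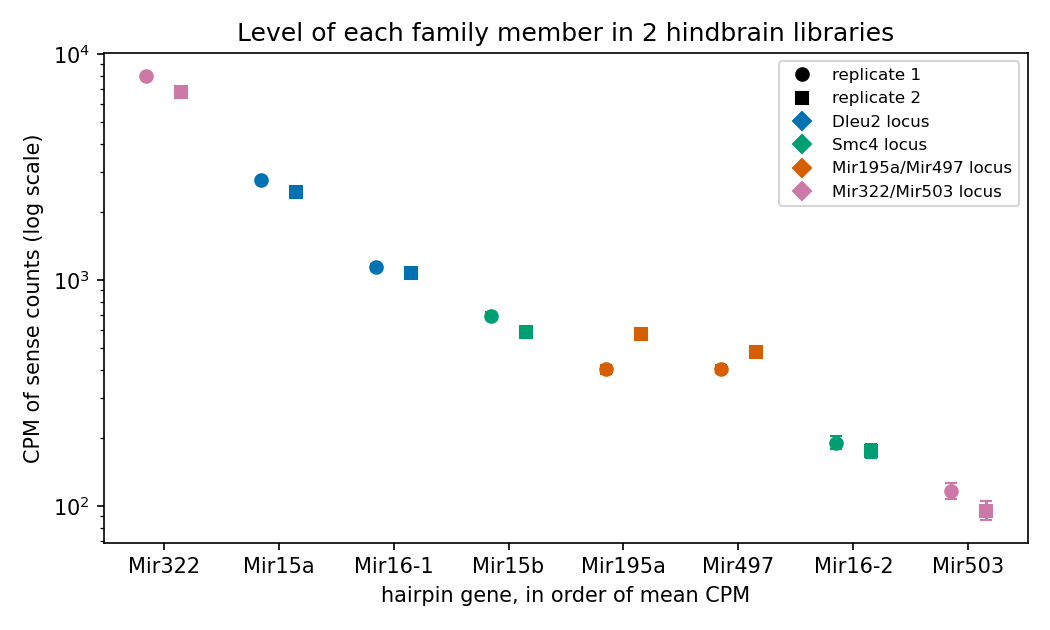
Each member's level in CPM is shown on a log axis, in order of mean CPM, with circles for replicate 1, squares for replicate 2, colours for loci and bars for exact binomial 95% intervals. Mir322 lies highest at 7984 and 6770 CPM and Mir503 lowest at 116 and 95.05 CPM, while the points of Mir15b, Mir195a and Mir497 lie close together.

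In the order of assigned reads, Mir322, Mir15a, Mir16-1, Mir15b, Mir195a, Mir497, Mir16-2 and Mir503, most neighbours differed beyond 2 SD. The order was set by mean CPM in these same 2 libraries, so the signs of these ratios are no independent support for it. Mir322 was above Mir15a by a log2 ratio of 1.497 ± 0.04 and Mir16-1 above Mir15b by 0.79 ± 0.10 (SD, n = 2). Mir497 was above Mir16-2 by 1.27 ± 0.27, and Mir16-2 above Mir503 by 0.79 ± 0.12. The places of Mir16-1 and Mir16-2 in this order hold for assigned reads only, since reads inside the stretch they share are left out. Mir15b over Mir195a gave 0.41 ± 0.54, with 0.79 in replicate 1 and 0.03 in replicate 2, and did not pass. Mir195a over Mir497 did not pass either, so the order of Mir15b, Mir195a and Mir497 was not resolved. The Mir322/Mir503 locus exceeded the Smc4 locus by 3.18 ± 0.02 and the Mir195a/Mir497 locus by 3.01 ± 0.45 (log2, SD, n = 2), both past 2 SD. With 2 libraries the smallest p that flipping signs can give in an exact test is 0.5, so no p is given for the ratios.

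**Figure D3:**
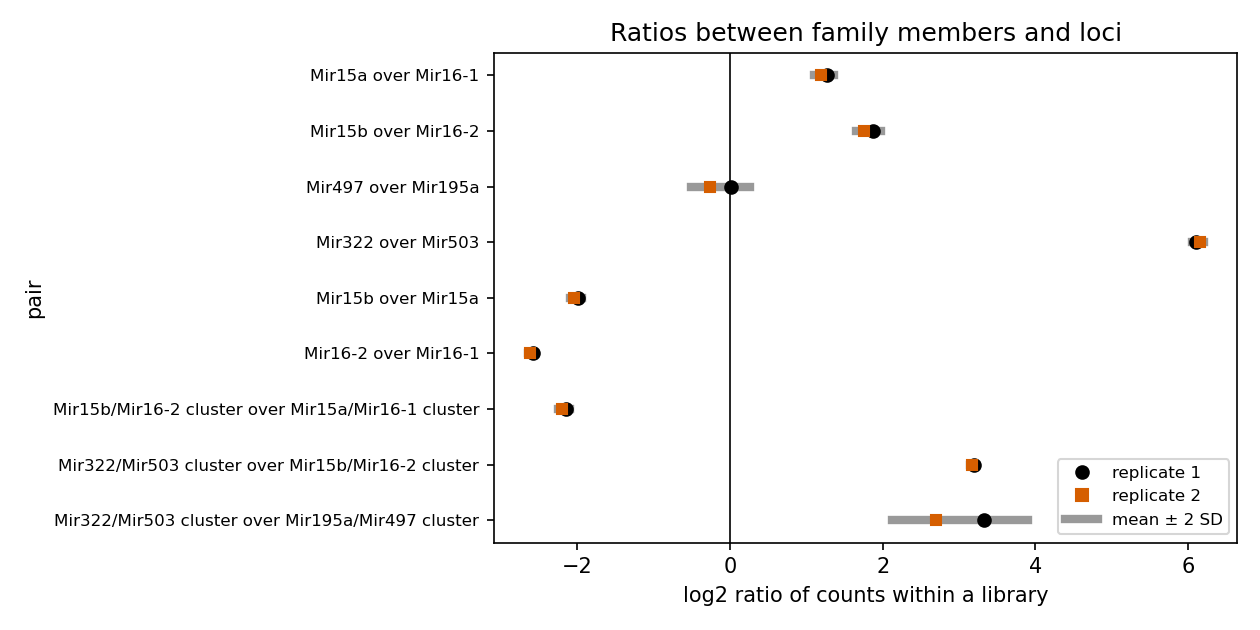
The log2 ratio of counts within a library is shown for 9 pairs of members or loci, with circles for replicate 1, squares for replicate 2 and grey bars for the mean ± 2 SD. The bar of Mir497 over Mir195a alone reaches across 0, and Mir322 over Mir503 lies farthest from it, at 6.10 and 6.15.

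Differences between the libraries were tested per hairpin. Under an exact two-sided binomial test against totals scaled by the trimmed mean of M values (TMM), 4 of 8 members were higher in replicate 1 and 2 were higher in replicate 2. Across all 402 features tested, 24.4% were higher in replicate 1 and 22.1% in replicate 2. The test compares these 2 libraries and covers counting noise only. Mir195a was higher in replicate 2 by a log2 ratio of 0.59 (95% interval 0.50 to 0.67, exact binomial adjusted p = 1.55e-42), and Mir497 by 0.32 (0.23 to 0.40, exact binomial adjusted p = 6.42e-12). Of the features tested, 9.95% differed by at least as much as Mir195a in either direction and 27.6% by at least as much as Mir497.

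Mir322, Mir503, Mir15a and Mir15b were higher in replicate 1, by smaller amounts. The log2 ratio of replicate 2 over 1 was -0.17 for Mir322 (interval -0.19 to -0.15), -0.23 for Mir503 (-0.41 to -0.04), -0.12 for Mir15a (-0.15 to -0.08) and -0.17 for Mir15b (-0.25 to -0.10). Mir16-1, at -0.03 (-0.08 to 0.03), and Mir16-2, at -0.06 (-0.20 to 0.08), did not pass. The median over the 8 members was -0.09, and over all features tested it was -0.0010. Without the minimum summed count of 20, Mir503 did not pass (exact binomial adjusted p = 0.0565), and with plain library totals Mir16-1 passed as higher in replicate 1 (log2 ratio -0.09, exact binomial adjusted p = 0.00308).

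With a spread between libraries beyond counting noise the calls were lost. With the biological coefficient of variation (BCV) set to an assumed 10%, edgeR's exact test called 0 of 8 members, against 1.74% of all features. An unadjusted exact p under 0.05 was reached by 1 member, Mir195a (0.00496, adjusted 0.220), against 34 of the 402 features. At the BCV of 16.2% estimated from the same libraries edgeR's exact test called 0 members, against 0.746% of features. An unadjusted exact p under 0.05 was reached by 0 members, against 11 of the 402 features. That BCV was set by the differences between the libraries under test, so its result is no independent check.

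**Figure D4:**
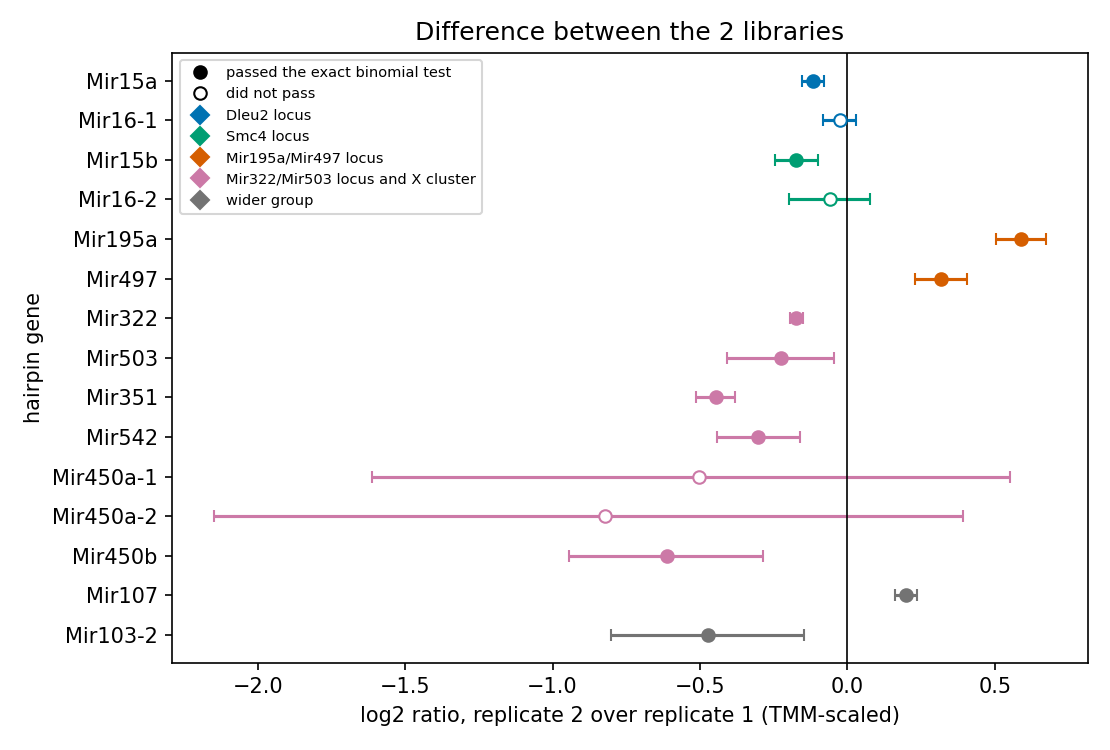
Points give the TMM-scaled log2 ratio of replicate 2 over replicate 1 for the 8 members, 5 other hairpins of the chromosome X cluster and 2 of the wider group, with exact binomial 95% intervals, filled where the exact binomial test passed. Mir195a and Mir497 lie right of 0 at 0.59 and 0.32, and all 7 hairpins of the chromosome X cluster lie left of it.

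Mir322 and Mir503 belong to a larger cluster of 7 hairpins that spans 6353 bases on chromosome X (53047997 to 53054349). The other hairpins carry other seeds. Mir351, which shares its seed with the miR-125 group, had 4829 and 2966 counts, or 947 and 665 CPM. Mir542 had 200.3 and 155 CPM, Mir450b 43.4 and 27.1 CPM, Mir450a-1 4.32 and 2.91 CPM, and Mir450a-2 3.73 and 2.02 CPM. Mir450a-1 and Mir450a-2 make the same 5p strand, so their counts have the limit described for miR-16. Mir322 alone held 86.8% ± 1.32 of the cluster's counts (SD, n = 2).

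All 7 hairpins of the chromosome X cluster had lower values in replicate 2, and 5 of 7 passed the exact binomial test as higher in replicate 1, against 24.4% of all features. Mir351 had a log2 ratio of -0.45 (interval -0.51 to -0.38), Mir542 one of -0.30 (-0.44 to -0.16) and Mir450b one of -0.61 (-0.94 to -0.29). Mir450a-1 (-0.50) and Mir450a-2 (-0.82) rested on few counts and did not pass. edgeR's exact test called 0 of the 7 at either BCV, against 1.74% of all features at the assumed BCV and 0.746% at the estimated one. An unadjusted exact p under 0.05 was reached by 2 (Mir351 and Mir450b) at the assumed BCV, against 34 of the 402 features. At the estimated BCV it was reached by 0 of the 7, against 11 of the 402. Hairpins of one cluster are not independent. The muscle marker Mir206 (369.6 and 24.2 CPM) and the mesenchymal marker Mir214 (369 and 186 CPM) were also lower in replicate 2. So were 3 of the 5 hindbrain markers tested, Mir10a, Mir10b and Mir137, with log2 ratios of -0.06, -0.37 and -0.28, and 0 were higher. At the assumed BCV edgeR's exact test gave these 3 unadjusted p values of 0.776, 0.0671 and 0.168. The part of the muscle, mesenchymal and hindbrain markers in the difference was not tested. The vascular markers Mir126a, Mir143 and Mir145a were higher in replicate 2 by the exact binomial test, with log2 ratios of 0.15, 0.07 and 0.22, the direction of Mir195a and Mir497. At the assumed BCV edgeR's exact test gave them unadjusted p values of 0.458, 0.731 and 0.322. With plain totals the log2 ratio of Mir143 was 0.0056. The erythroid markers went different ways, with log2 ratios of 0.27 for Mir451a, -0.39 for Mir144 and 0.0009 for Mir486. The part of vascular or erythroid markers in the difference of Mir195a and Mir497 was not tested.

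The wider group of miR-15 and miR-107 adds Mir107, Mir103-1 and Mir103-2, which lie in introns of the pantothenate kinase genes Pank1, Pank3 and Pank2. Their 3p strands hold AGCAGCA at bases 1 to 7, so that the family seed is shifted by 1 base. They are shown for that shift, with bases 2 to 8 in capitals.
miR-107-3p: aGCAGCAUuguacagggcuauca
miR-103-3p: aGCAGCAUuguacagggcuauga
miR-107-3p differed from miR-103-3p by C22G alone. Mir107 had 11520 and 11063 counts, or 2260 and 2480 CPM, a mean of 2370 ± 156 CPM (SD, n = 2), close to Mir15a. Mir103-2 had 41.0 and 28.2 CPM, and Mir103-1 had 13 and 6 counts. The 2 Mir103 hairpins make the same 3p strand, so their counts are no measure of miR-103. The hairpins of Mir107 and Mir103-2 share a run of 24 bases, so a read of miR-107-3p that ends before base 22 fits both and the count of Mir107 leaves such reads out as well. Mir107 was higher in replicate 2 (log2 ratio 0.20, interval 0.16 to 0.24) and Mir103-2 in replicate 1 (-0.47, -0.80 to -0.15). edgeR's exact test called 0 of these at either BCV, and 0 had an unadjusted exact p under 0.05, against 34 and 11 of the 402 features.

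The seed AGCAGCA at bases 2 to 8 occurs in 11 of the 1738 mature strands of the RefSeq table, 0.633%. Of these, 7 belong to members. The other 4 were Mir195b, with 0 and 1 counts, and Mir6342, Mir6353 and Mir6419, each with 0 counts in both libraries. The seed of Mir503 occurs in no other strand of the table. Among hairpins with an entry and an AGCAGCA strand, nearly all counts therefore came from the members. These held 1.29% ± 0.105 of the sense counts without Mir503 (SD, n = 2). That share counts both arms of each hairpin and leaves out reads that fit both miR-16 loci. It is therefore no measure of the amount of AGCAGCA strands.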

How the data were processed

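The authors deposited unnormalized counts of reads for each gene entry (mm10, GENCODE M4, per a text file deposited beside them), with columns for reads regardless of strand, in sense and opposite. Aligner: not given in the sources used here. The 4 summary lines of each table were kept out of totals. Identifiers matched GENCODE M21 for 1894 of 1973 entries and for every entry used. CPM is the count per 1000000 sense counts, also for Mir497. A mature strand yields at most 1 read, so levels were not divided by length. The yield of reads per strand may differ between sequences and was not measured, so ratios between hairpins are ratios of reads. Intervals are exact binomial (95%) and, with the limit of 3 counts for a 0, cover counting error only. Libraries were compared over all entries with a summed count of at least 20, plus Mir497 (402 features), with Benjamini-Hochberg adjustment at 0.05 and edgeR TMM scaling, which shifts log2 ratios by 0.06. The exact binomial test was also run on simulated counts with counting noise only and plain totals. Such counts cannot show how it behaves under a spread between libraries. Text names the 8 members, the wider group, the chromosome X cluster, strands with a member's seed and the 2 entries above and below the top member. Members and lists were chosen with earlier results of these data known. Alternatives were other strands, totals, scalings (DESeq2 size factors), filters and pseudocounts, single replicates and edgeR's exact test. The tools were edgeR 4.0.16 and DESeq2 1.42.0 in R 4.3.3, and scipy 1.17.1, numpy 2.4.6, pandas 2.3.3 and matplotlib 3.10.9 in Python 3.11.15.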

Additional observations from a re-analysis of the deposited data

Results flagged for a closer look

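Opposite-strand counts lay outside the main measurement, apart from those that gave Mir497. They came to 123641 in replicate 1 and 109234 in replicate 2 on entries other than Mir497b, against 5097205 and 4460836 sense counts over all entries. None of the other 7 members had a count on the opposite strand of its entry, 0 in both libraries.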

How the results depend on the processing

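The family's share was 1.57% in a total without the most abundant gene, 0.739% with multimapping reads in the total and 1.17% without Mir16-1 and Mir16-2; it lay between 1.22% and 1.37% with 1 replicate left out, and 2 other alternatives moved it by less than 1 SD. All 36 alternative values of the 9 pair ratios kept their call or stayed within 1 SD. With 2 libraries a value from 1 replicate always lies within 1 SD of their mean, so those alternatives could not move a ratio. Reads on either strand left the ratios without Mir497 unchanged, and the pseudocount changed counts of this size very little. The count of members that differed between libraries was 6, fell to 0 with edgeR's exact test at either BCV (7 and 3 of 402 features called against 187), and was within 1.5 times under the other 5 alternatives. With plain totals 131 features were higher in replicate 1 and 63 in replicate 2, against 98 and 89. None of the 56 alternative values of the members' library ratios changed sign. Other filters and edgeR's exact test left the ratios themselves the same or nearly so, so those values could not change sign. No paired analysis was possible because there is 1 group.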
